A study of Mus musculus with 34 samples.

Results

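Distal KDM5C peaks without KDM5A are the regions of the deposited KDM5C peak table that lie more than 1000 bp from the nearest transcription start site and overlap no peak of the deposited KDM5A table by 1 bp or more. The rule left 8325 of 14827 KDM5C peaks (56.1%). The other classes were 4330 distal peaks that overlap a KDM5A peak (29.2%) and 2172 peaks within 1000 bp of a start site (14.6%). All samples come from 3T3-L1, a mouse line of committed preadipocytes, induced with dexamethasone, insulin, IBMX and serum. KDM5C was immunoprecipitated at day 2 in 2 libraries (KDM5C day 2), set against 1 Input library whose day is not given, and no transduction is stated for these 3 samples. The KDM5A table draws on 6 libraries, 2 each at day 0, 4 hours and day 2. RNA and the chromatin for H3K4me3 came from cells transduced 4 days before induction, for 24 h with 6 ug/mL polybrene. The RNA groups compared were shKdm5ABC at day 2 (lentiviral shRNA against Kdm5a, Kdm5b and Kdm5c together), shLuc at day 2 and shLuc at day 0 (control shRNA), with 2 libraries each. The fits also held shKdm5ABC at day 0 and both shRNA groups at 4 hours. The shRNA reduced 3 genes at once in a single cell line, so no RNA difference can be assigned to KDM5C alone. The titles number the replicates as experiments, but separate cultures are not stated, so p-values measure the spread between these libraries.

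KDM5C is an X-linked member of the KDM5 family, which removes methyl groups from trimethylated and dimethylated lysine 4 of histone H3. Trimethylated lysine 4 (H3K4me3) marks active promoters, whereas monomethylated lysine 4 marks enhancers, and KDM5C is known to bind both promoters and enhancers. During adipogenesis, glucocorticoid and cAMP signals act first, after which PPARG and the C/EBP factors turn on the genes of lipid storage.

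The KDM5C peaks have mm9 coordinates and no mm9 sequence was used here, so the sequence of the peaks themselves is not shown. Start sites of nearest genes are represented by 2 RefSeq promoters (GRCm38.p6, 300 bases that end shortly after the start, both on the minus strand), with every CG in capitals. Pole4 (an accessory subunit of DNA polymerase epsilon, chr6:82652825-82653124) and Plin1 (perilipin, the coat protein of lipid droplets, chr7:79732727-79733026) are shown because both genes lie next to strong KDM5C peaks of this set, both have an H3K4me3 peak at the start, and both rose with differentiation.
Pole4: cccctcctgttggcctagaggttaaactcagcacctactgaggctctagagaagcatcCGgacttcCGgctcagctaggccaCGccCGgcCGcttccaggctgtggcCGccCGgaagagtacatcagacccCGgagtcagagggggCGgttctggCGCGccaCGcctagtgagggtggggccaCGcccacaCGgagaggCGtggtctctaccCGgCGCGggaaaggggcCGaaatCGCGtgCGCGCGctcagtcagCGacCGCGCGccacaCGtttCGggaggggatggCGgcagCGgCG
Plin1: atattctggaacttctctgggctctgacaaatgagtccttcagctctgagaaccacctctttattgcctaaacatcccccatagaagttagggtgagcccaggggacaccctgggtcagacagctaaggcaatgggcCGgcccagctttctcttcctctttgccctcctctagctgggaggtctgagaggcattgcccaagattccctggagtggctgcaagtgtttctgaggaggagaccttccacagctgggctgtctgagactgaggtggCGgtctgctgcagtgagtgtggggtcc
The Pole4 window held 33 CG dinucleotides, and 91.4% of 32841 RefSeq promoters of that length had fewer. The Plin1 window held 2, and 85.9% of promoters had as many or more. Of the nearest genes with RNA values, 76.2% could be matched to a promoter, too few for such a check, so a comparison of CG content between gene sets is void.

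The KDM5C libraries were shallow and unequal. Library totals recovered from the tag steps were 2946722 reads in KDM5C replicate 1, 8127763 reads in KDM5C replicate 2 and 11108544 reads in Input, so 1 read was worth 3.39, 1.23 and 0.900 normalised tags (scaled to a common library total). A count of 0 allows up to 10.2, 3.69 and 2.70 tags in these libraries, where intervals and limits cover counting error only. In RNA, the 7 adipocyte markers had a summed level (log2 tags per kb) of 14.1 to 14.9 in shKdm5ABC day 2 libraries, 15.04 to 15.38 in shLuc day 2 libraries and 11.63 to 11.96 in shLuc day 0 libraries, and the 6 preadipocyte and fibroblast markers had 11.4 to 11.7, 10.6 to 11.3 and 13.0 to 13.2. Of other cell types, 2 of 5 endothelial, 4 of 6 macrophage, 2 of 5 muscle and 2 of 4 neuronal markers passed the filter on low values, and Pecam1, Kdr, Tek, Adgre1, Ptprc, Myh11, Rbfox3 and Snap25 did not. Their summed levels were 4.28 to 4.81, 5.84 to 6.36, 4.23 to 4.39 and 2.44 to 2.97 in shKdm5ABC day 2 libraries, against 4.44 to 4.95, 5.30 to 5.94, 3.92 to 4.53 and 2.73 to 2.84 in shLuc day 2 libraries. All 3 shRNA targets had less RNA at day 2 with shKdm5ABC than with shLuc. Kdm5c had 7.17 and 6.91 log2 tags per kb in shKdm5ABC cells, against 8.29 and 8.49 in shLuc cells. Kdm5a had 6.97 and 6.77, against 7.73 and 7.82, and Kdm5b had 6.97 and 6.89, against 7.57 and 7.58. Kdm5c was left at 39.2%, Kdm5a at 53.4% and Kdm5b at 63.9% (limma, adjusted p 0.00290, 0.00424 and 0.00664). None of the 3 was the nearest gene of a distal KDM5C peak without KDM5A.

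The distal KDM5C peaks without KDM5A carried low signal. Their median was 17.0 tags in KDM5C replicate 1 and 4.92 tags in KDM5C replicate 2, against 0.90 tags in Input. In whole reads these medians are 5, 4 and 1. The mean of both KDM5C libraries had a median of 10.9 tags, below the 14.49 tags of the distal peaks shared with KDM5A and the 19.5 tags of the promoter peaks. A mean of at least 20 tags was reached by 554 of the 8325 peaks (6.65%), by 29.4% of the shared distal peaks and by 48.6% of the promoter peaks. The signal was not concentrated in a few sites, since the top 10% of the peaks held 20.8% of the tags.

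Relative to Input, the peak classes had close medians for the mean of both libraries but not in replicate 2. The median log2 ratio of KDM5C to Input, with 1 tag added to each, was 3.07 for the peaks of this set, 3.06 for shared distal peaks and 2.99 for promoter peaks. In KDM5C replicate 1 it was 3.49 for the peaks of this set, 3.49 for shared distal and 3.43 for promoter peaks. In KDM5C replicate 2 it was 1.91, 2.39 and 2.34 in the same order. This enrichment is a property of the table and no test of binding: every peak in it had at least 1 read in both KDM5C libraries, and among peaks with an Input read the lowest ratio was 5.03 in replicate 1 and 4.10 in replicate 2. All 8325 peaks were accordingly more than 2-fold above Input in both libraries. Input had no read at 46.1% of them, against 25.1% of the shared distal and 12.2% of the promoter peaks. As a share of each library, the set held 1.52% of the reads of KDM5C replicate 1 (95% Wilson interval 1.504 to 1.532%), 0.571% of replicate 2 (0.566 to 0.576%) and 0.0554% of Input (0.0540 to 0.0568%).

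The KDM5C libraries did not rank these peaks alike. Over the 8325 peaks, Spearman's correlation between the libraries was -0.081, whereas it was 0.341 over the shared distal peaks and 0.617 over the promoter peaks. These are descriptions across regions that share both libraries and the choice of peaks. Only 1 of the 8325 peaks had at most 3 reads in replicate 1 and at most 6 in replicate 2. Such a gap lowers the correlation whatever the agreement of the libraries, so it does not measure how well they agree. How far it was lowered was not tested. Replicate 1 had more tags than replicate 2 at 83.5% of the peaks, close to the 82.6% of shared distal peaks. The median of replicate 1 was 3.45 times that of replicate 2, against 1.84 times at the shared distal and 2.21 times at the promoter peaks. The difference in library totals cannot by itself be told apart from other differences between the libraries, and its part was not tested.

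The low correlation came with a split in the read counts. Most peaks, 5524 (66.4%), had at least 4 reads in replicate 1 and at most 6 in replicate 2. A further 1353 (16.3%) had at most 3 reads in replicate 1 and at least 7 in replicate 2. Only 1447 (17.4%) had at least 4 and at least 7, compared with 47.5% of the shared distal and 67.1% of the promoter peaks. A single peak was below both values. These cut-offs were chosen after the read counts were seen. The peak identifiers end in a number that was 2 for 381 of the peaks (4.58%), 19.7% of the shared distal and 22.3% of the promoter peaks, and each of those 381 had at least 4 reads in replicate 1 and at least 7 in replicate 2. Their Spearman correlation was 0.623, and their medians were 23.8 tags in replicate 1 and 14.8 tags in replicate 2, against 1.80 tags in Input. The identifiers belong to peaks called on these same libraries, so 0.623 does not measure how well the libraries agree either. With a mean of at least 20 tags, the Spearman correlation over 554 peaks was 0.189. A choice by the mean of both libraries also lowers the correlation.

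**Figure D1:**
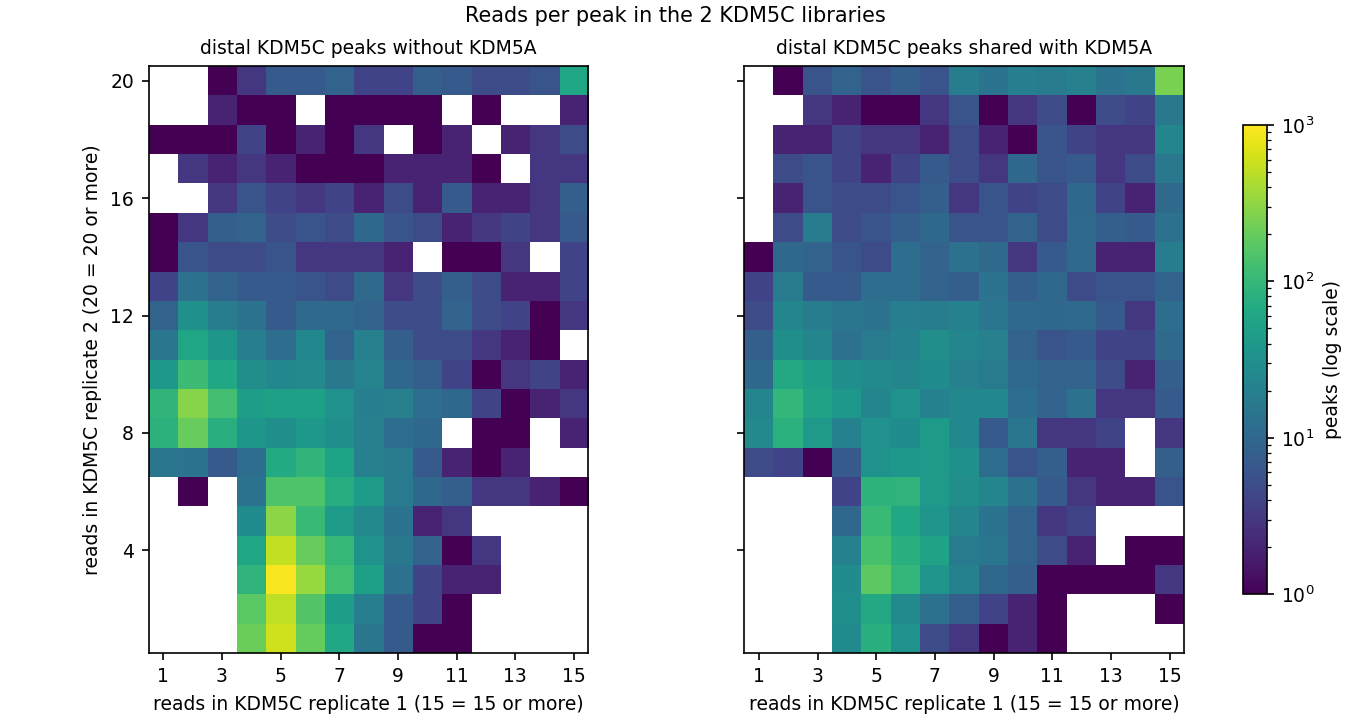
Number of peaks (colour, log scale) by reads in KDM5C replicate 1 (x axis, 15 or more pooled) and KDM5C replicate 2 (y axis, 20 or more pooled), for distal KDM5C peaks without KDM5A (left) and distal peaks shared with KDM5A (right). The left panel has a dense block near 5 reads in replicate 1 and 3 in replicate 2 and a second near 2 and 9, and the corner with at most 3 and at most 6 reads holds 1 peak.

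The strongest peaks stood clear of Input in each library, as did every peak of the table. The highest lay 40.1 kb from Mir1192, a microRNA gene, at chr19:23263177-23264838. It had 166 tags in KDM5C replicate 1 and 80.0 tags in KDM5C replicate 2, against 16.2 tags in Input, which are 49, 65 and 18 reads. The peak 18.4 kb from Ripply3, which encodes a transcriptional corepressor, had 166 and 59.1 tags, against 14.4 tags in Input (chr16:94567510-94569303). Both KDM5C libraries exceeded Input at these sites, and they were also the peaks with the most Input tags of the whole set.

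Other peaks among the 12 strongest were also well above Input. A peak 2.899 kb from Pex11a, a peroxisome proliferation factor, had 122 and 55.4 tags, against 9.90 tags in Input (chr7:86883670-86886354). It lies next to a peak 1295 bp upstream of Plin1 that had 47.5 and 30.8 tags, against 1.80 tags in Input (chr7:86878486-86879429). The peak 28.8 kb from Scd3, a stearoyl-CoA desaturase, had 122 and 46.8 tags, against 10.8 tags in Input (chr19:44305902-44307239). The peak 159 kb from Tgfbr2, the type II receptor of TGF-beta, had 119 and 52.9 tags, against 11.7 tags in Input (chr9:116242419-116244634).

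The rest of the 12 had the same order of libraries, with replicate 1 highest and Input lowest. Pole4 had a peak of 109 and 62.8 tags, against 6.30 tags in Input, 5.20 kb from its start (chr6:82596923-82598387). Foxp1, a forkhead transcription factor, had a peak of 119 and 45.5 tags, against 5.40 tags in Input, 103 kb away (chr6:99080914-99081414). Arhgap28 had a peak of 156 and 50.4 tags, against 11.7 tags in Input, at a distance of 53.1 kb (chr17:68299963-68300743). The remaining peaks lay nearest to Mtx2, Bcl2l10, 4930511E03Rik and 5430434I15Rik. The nearest of the 87525 KDM5A peaks lay 0.068 to 4.64 kb from each of the 12, without overlapping it.

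**Figure D2:**
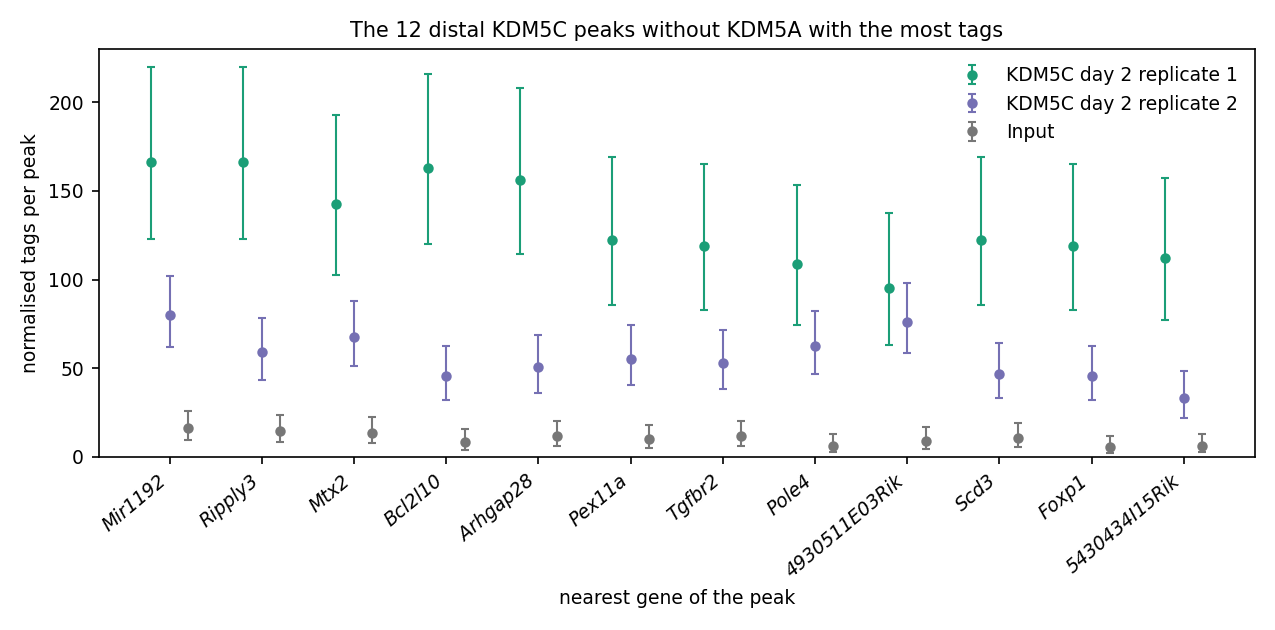
Normalised tags (y axis) in KDM5C replicate 1, KDM5C replicate 2 and Input at the 12 strongest distal KDM5C peaks without KDM5A, each named by its nearest gene (x axis). Bars are 95% Poisson intervals of the reads, and both KDM5C libraries lie above Input at each peak, replicate 1 highest.

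Most peaks lay more than 5 kb from a start site. The median distance to the nearest start site was 34.7 kb, against 16.7 kb for distal peaks shared with KDM5A. Within 5 kb there were 796 of the 8325 peaks (9.56%), against 23.1% of the shared peaks, while 8.83% lay between 200 and 500 kb and 3.36% farther away. Nearest to the limit, the peaks of Vstm2l, Snord70 and Elmod2 lay at -1006, -1018 and -1021 bp from their start sites (negative is upstream), with 81.5 and 39.4, 17.0 and 6.15, and 20.4 and 9.84 tags in the KDM5C libraries, against 6.30, 0.90 and 1.80 tags in Input. Just outside it, the KDM5C peaks of Hyal4, Kcnj13 and Hpx, also without KDM5A, lay at 1000, -1000 and -998 bp, with 3.39 and 14.8, 17.0 and 6.15, and 10.18 and 15.99 tags, and no Input read. By the sign of the distance, 42.0% lay upstream of the nearest start, and whether the others lie inside genes was not analysed here. Most peaks (85.7%) were exactly 500 bp wide, end minus start. The X chromosome held 2.44% of the peaks and the autosomes between 2.98% and 9.45% each.

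**Figure D3:**
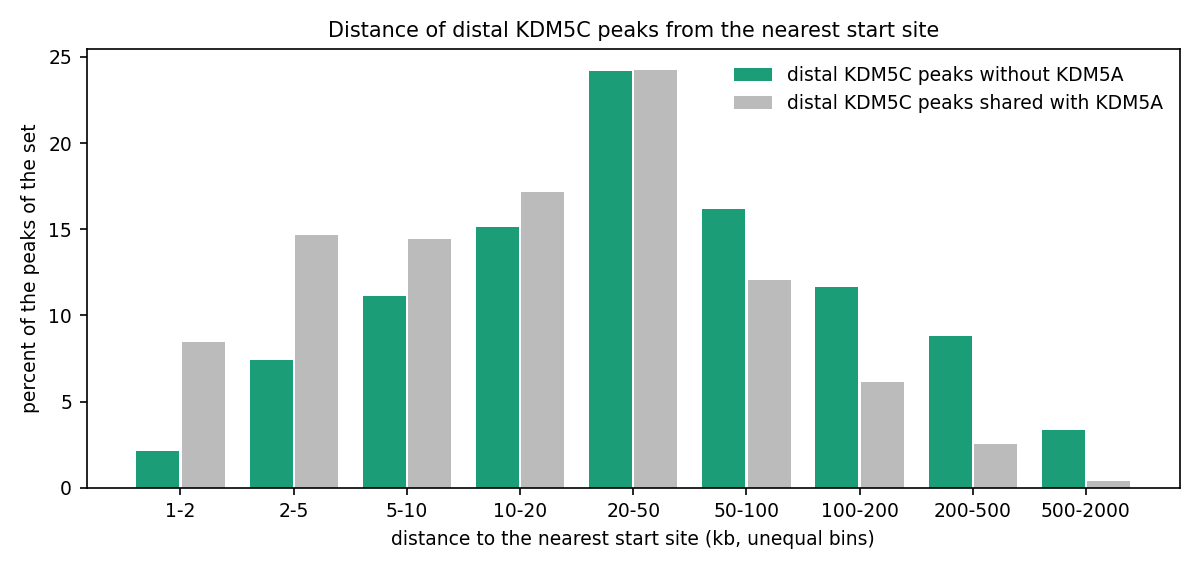
Percent of the peaks of each set (y axis) by distance to the nearest start site in kb (x axis, unequal bins), for distal KDM5C peaks without KDM5A (green) and distal peaks shared with KDM5A (grey). Between 1 and 5 kb lie 9.56% of the first and 23.1% of the second.

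Absence from the KDM5A table did not mean distance from KDM5A. The nearest KDM5A peak was 7.61 kb away at the median, 4700 of the 8325 peaks (56.5%) had a KDM5A peak within 10 kb, and 615 (7.39%) had one within 500 bp. The KDM5A table is dense, with 87525 peaks. The same shares at random sites were not determined, so these values are not shown to be particular to the set. The KDM5A level at the peaks of this set was not analysed here. H3K4me3 promoter peaks overlapped 61 of the peaks (0.733%), against 11.1% of the shared distal and 91.2% of the KDM5C promoter peaks. The nearest peak of the same set was 63.3 kb away at the median, and 14.8% had one within 10 kb, against 44.9 kb and 23.5% for the shared distal peaks.

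The 8325 peaks were assigned by the deposited annotation to 5280 nearest genes, of which 3654 had a single peak, 1626 had 2 or more and 26 had 10 or more. Gm4265 had the most, 14 peaks between 20.04 and 181.3 kb away. Trp63, a transcription factor of the p53 family, had 13. Nfia, a nuclear factor that takes part in adipogenesis, had 11 peaks, of which the strongest had 61.08 and 15.99 tags, against 3.60 tags in Input, 2.10 kb from the start (chr4:97445928-97446914). Bcl6, a zinc finger repressor, had 10. A nearest gene is the closest annotated start and not a shown target.

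Of the 5280 nearest genes, 3653 were in the RNA table by their RefSeq transcript and 2885 passed the filter on low values. The deposited annotation gave 64.2% of the 3653 a KDM5A peak within 1000 bp of the start, 13.0% a KDM5C promoter peak and 28.4% also a distal peak shared with KDM5A. Among all 17515 transcripts these shares were 52.4%, 10.0% and 13.4%. The median RNA level of the tested nearest genes was 6.95 log2 tags per kb in shLuc cells at day 2, and 6.71 over all tested transcripts.

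The share of nearest genes that rose with differentiation was higher next to stronger peaks. Over all 2885 tested nearest genes, 1640 (56.8%) differed in shLuc cells between day 2 and day 0, against 55.0% of all tested transcripts (limma, adjusted p under 0.05). Of these, 877 (30.4%) were higher and 763 (26.4%) lower at day 2. The background over 13534 tested transcripts was 27.1% higher and 27.8% lower, so the set as a whole was near it. With the replicate as a block, 1990 nearest genes (69.0%) were called against 66.8% of all, 36.5% higher against 33.1% and 32.5% lower against 33.6%. Grouped by the mean tags of a gene's strongest peak of this set, the share that rose was 26.5% of 616 genes below 10 tags, 28.5% of 1574 from 10 to 15 tags, 32.1% of 408 from 15 to 20 tags, 44.8% of 192 from 20 to 30 tags, and 50.5% of 95 at 30 tags or more. The share that fell was 28.4% in the lowest group and 19 of 95 in the highest, and the median log2 change was -0.05 in the lowest and 0.55 in the highest. No test of the difference between groups was made, and the groups were set with earlier results known.

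**Figure D4:**
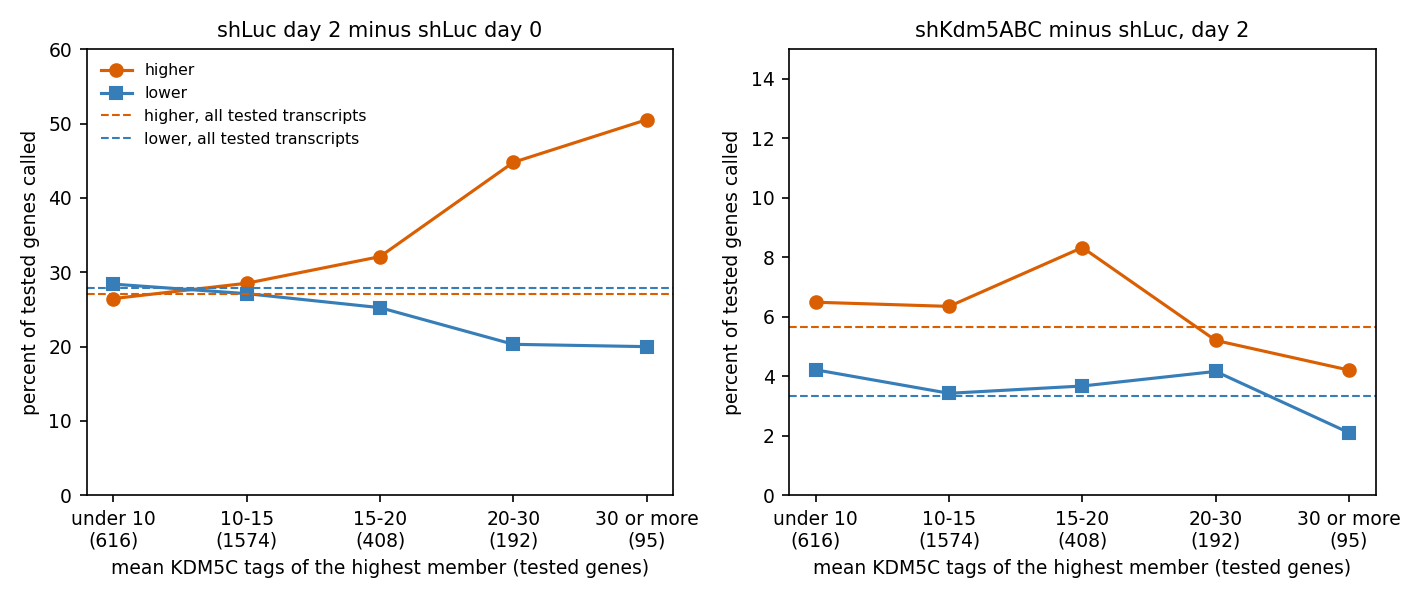
Percent of tested nearest genes called higher (orange) or lower (blue) against the mean KDM5C tags of the gene's strongest distal KDM5C peak without KDM5A (x axis, number of tested genes in brackets), for shLuc day 2 minus shLuc day 0 (left) and shKdm5ABC minus shLuc at day 2 (right). Dashed lines are all tested transcripts. On the left the share called higher is 26.5% below 10 tags and 50.5% at 30 tags or more.

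Other values moved with the peak strength, and their part in this order was not tested. The median Input tags of the peaks were 0.00 in the lowest group and 3.60 in the highest. Of the genes with a peak of at least 20 tags, 48.4% also had a distal peak shared with KDM5A. Without those genes, 55 of 145 (37.9%) rose and 38 (26.2%) fell. Distal peaks shared with KDM5A gave a like order, 31.1% below 10 tags and 48.1% at 30 tags or more. Distance went along too: 38.3% of the genes with a peak at 1 to 5 kb rose and 17.3% fell, whereas 26.2% of those with a peak beyond 50 kb rose and 33.5% fell.

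Genes of fat storage next to the peaks rose with differentiation. Of 32 tested genes on a list of adipocyte lipid and secreted genes, 14 (43.8%) were nearest genes of the set, compared with 21.3% of all tested transcripts. All 14 were higher in shLuc cells at day 2 than at day 0, with log2 changes from 1.04 to 6.96 and a median of 4.27. Over the whole list 28 of 32 rose and 1 fell with a median of 4.06, and the median over all tested transcripts was -0.01. Lists of other kinds had like shares of nearest genes. They were 40.7% for matrix and cytoskeleton, 45.7% for preadipocyte receptors and Wnt, and 43.6% for glucocorticoid, cAMP and immediate-early genes. Plin1, with 3 peaks of the set, had levels of 8.25 and 8.86 log2 tags per kb at day 2, against 1.98 and 2.50 at day 0, a rise of 6.32 (SE 0.64, adjusted p 1.92e-05). The day 2 and day 0 libraries of Plin1 did not overlap.

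Retn, which encodes the adipokine resistin, had a peak 3.24 kb upstream with 33.94 and 15.99 tags, against 0.90 tags in Input (chr8:3652051-3653007). Its RNA had levels of 9.65 and 9.41 at day 2, against 2.70 and 2.44 at day 0 (change 6.96, SE 0.53, adjusted p 3.45e-06). Acsl1, a long-chain acyl-CoA synthetase, had 6 peaks and rose by 6.76. Cfd, which encodes adipsin, rose by 6.32 and had a peak 1443 bp upstream. Fabp4, the fatty acid binding protein of adipocytes, had 6 peaks of the set and rose by 4.98, and Lpl, lipoprotein lipase, had 5 and rose by 2.07. Cd36, a fatty acid transporter, had 6 peaks, the strongest with 98.4 and 34.5 tags, against 6.30 tags in Input (chr5:17398761-17399907), but its transcript had no RNA value here.

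Of 39 tested adipogenic transcription factors, 20 (51.3%) were nearest to a peak of the set. Of the 20, 13 rose and 6 fell with differentiation, against 22 and 10 of the 39, and 27.1% and 27.8% of all tested transcripts. Cebpa, a master regulator of adipogenesis, rose by 4.12, and Rxra, the partner of PPARG, rose by 1.67. The peak assigned to Rxra lay 78.8 kb away with 67.9 and 23.4 tags, against 3.60 tags in Input (chr2:27453503-27454365). Klf2, which is known to repress adipogenesis, fell by 2.26. Of 17 tested nearest genes on the list of glucocorticoid, cAMP and immediate-early genes, 10 rose and 1 fell, against 15 and 7 of the 39 on the whole list. Fkbp5, a glucocorticoid receptor co-chaperone, rose by 2.96.

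Nearest genes on the matrix and interferon lists mostly fell. Of 22 tested nearest genes for matrix and cytoskeleton, 14 fell and 4 rose, whereas 37 of the 54 tested genes of that list fell. Thbs2, a matrix glycoprotein, had 6.02 and 6.45 log2 tags per kb at day 2, against 11.35 and 11.55 at day 0, a fall of 5.21 (SE 0.19, adjusted p 1.27e-07). Of 6 interferon genes next to a peak, 5 fell, among them the GTPases Mx1, by 5.25, and Gbp2, by 5.04, while 32 of 33 on that list fell. Only 18.2% of the interferon genes were nearest genes, close to the 21.3% of all tested transcripts.

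Expression of shKdm5ABC changed a share of the nearest genes near that of all transcripts. Only the RNA of the targets was measured, not their protein. At day 2, 293 of 2885 tested nearest genes (10.2%) differed between shKdm5ABC and shLuc cells, 188 higher (6.52%) and 105 lower (3.64%), against a background of 9.0%, 5.66% and 3.34% of all tested transcripts. This comparison shares its shLuc day 2 libraries with the one across time. Among genes with a peak of at least 20 tags, 24 of 287 (8.36%) were called, and 99 (34.5%) with the replicate as a block. Replicate numbers pair the libraries, and with the replicate as a block 921 nearest genes (31.9%) were called, 449 higher (15.56%) and 472 lower (16.4%), against 28.1%, 13.9% and 14.2% of all. The count depended on the libraries, for the nearest genes as for all tested transcripts. When only the compared groups were fitted, 6 nearest genes were called, against 25 of all tested transcripts (0.185%).

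Apod, a lipocalin, had the largest rise with shKdm5ABC among the nearest genes with a mean level of at least 3. It had 9.71 and 9.63 log2 tags per kb in shKdm5ABC cells, against 6.52 and 6.99 in shLuc cells at day 2, a rise of 2.92 (SE 0.27, adjusted p 0.00132). The groups did not overlap. Its strongest peak, 48.7 kb upstream, had 27.2 and 7.38 tags, against 0.90 tags in Input (chr16:31362991-31363819). Slit2, a guidance ligand, rose by 2.01 (8.43 and 7.66 in shKdm5ABC cells, against 5.97 and 6.10 in shLuc cells), and Olfml3, a secreted olfactomedin-like protein, by 1.99 (7.15 and 7.42, against 5.12 and 5.48). Rassf2, S1pr1, Sult1a1, Osr2, Dkk3, Klra15 and Cxcl13 complete the 10 largest rises, from 2.04 to 2.57, and Klra15 belongs to a multigene family whose reads the counting could split. With the replicate block, the 10 had adjusted p from 3.81e-06 to 0.000988 (limma). The fits that left out a library, given next, had no block. Of the 10, Apod, Dkk3, Olfml3 and Slit2 were called without each compared library in turn, whereas the other 6 were not called without shKdm5ABC replicate 1 or without shLuc replicate 2.

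The comparison across time uses the same shLuc day 2 libraries, and its values for these genes are given beside theirs. At day 2 relative to day 0 in shLuc cells, Apod fell by 4.65, Dkk3, a secreted protein of the dickkopf family, by 4.05, Olfml3 by 3.71, Osr2 by 2.95, Rassf2 by 2.46, Slit2 by 2.12 and S1pr1, a sphingosine-1-phosphate receptor, by 1.79. Cxcl13, a chemokine, rose by 3.13 and Sult1a1, a sulfotransferase, by 1.16, and Klra15 had a change of 0.89 that did not pass the threshold. In matrix genes, 3 of 22 tested nearest genes rose with shKdm5ABC and none fell, and 11 of 54 rose over the whole list. With the replicate block, 9 of the 22 rose and 2 fell. Adamts5, an aggrecanase, rose by 1.58 (SE 0.19, adjusted p 0.00210). Of its 4 peaks, the strongest lay 657 kb away with 44.1 and 33.2 tags, against 3.60 tags in Input (chr16:86557507-86558539). Col15a1, a collagen of basement membranes, had 7.38 and 7.23 log2 tags per kb in shKdm5ABC cells, against 6.19 and 6.36 in shLuc cells, a rise of 1.03 (adjusted p 0.00674, and 0.0740 without shKdm5ABC replicate 1).

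The falls were smaller. Wfdc21, a secreted whey acidic protein domain gene, had 6.46 and 7.45 log2 tags per kb in shKdm5ABC cells, against 8.54 and 8.67 in shLuc cells, a fall of 1.65 (SE 0.36, adjusted p 0.0215) that was not called without shKdm5ABC replicate 1 or either shLuc replicate (adjusted p 0.170, 0.0813 and 0.125). Elovl4, an elongase of very long chain fatty acids, fell by 1.45 and Tmem86a by 1.44. Zmpste24, the protease that processes prelamin A, Insig1, which retains SREBP in the endoplasmic reticulum, Fam49b, Ccne2, Rab1, Tnfaip8 and Snx10 fell by 1.15 to 1.39. With the replicate block, the 10 genes from Wfdc21 to Snx10 had adjusted p from 1.48e-05 to 0.00452 (limma). The fits that left out a library had no block. Of these 10 genes, only Elovl4 was called without each compared library in turn, and 9 were not called without shKdm5ABC replicate 1, nor 9 without shLuc replicate 2. Of the 12 strongest peaks, Pole4 and Arhgap28 were the nearest genes that were called: Pole4 fell by 1.09 (9.96 and 10.5 in shKdm5ABC cells, against 11.1 and 11.5 in shLuc cells, adjusted p 0.00932), and Arhgap28 rose by 1.36 (6.86 and 6.32, against 5.39 and 5.06, adjusted p 0.0253). The call of Pole4 was lost without shKdm5ABC replicate 1 (adjusted p 0.0789) or shLuc replicate 2 (0.0771), and that of Arhgap28 without shKdm5ABC replicate 1 (0.191), shLuc replicate 1 (0.0668) or shLuc replicate 2 (0.153). The other nearest genes of the 12 that were tested changed by -0.73 to 0.58 and did not pass the threshold. With the replicate block, Mtx2 (change -0.36, adjusted p 0.00807) and Foxp1 (0.58, adjusted p 0.0112) did. Pole4 and Arhgap28 had adjusted p 0.000632 and 0.00192 in that limma fit.

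**Figure D5:**
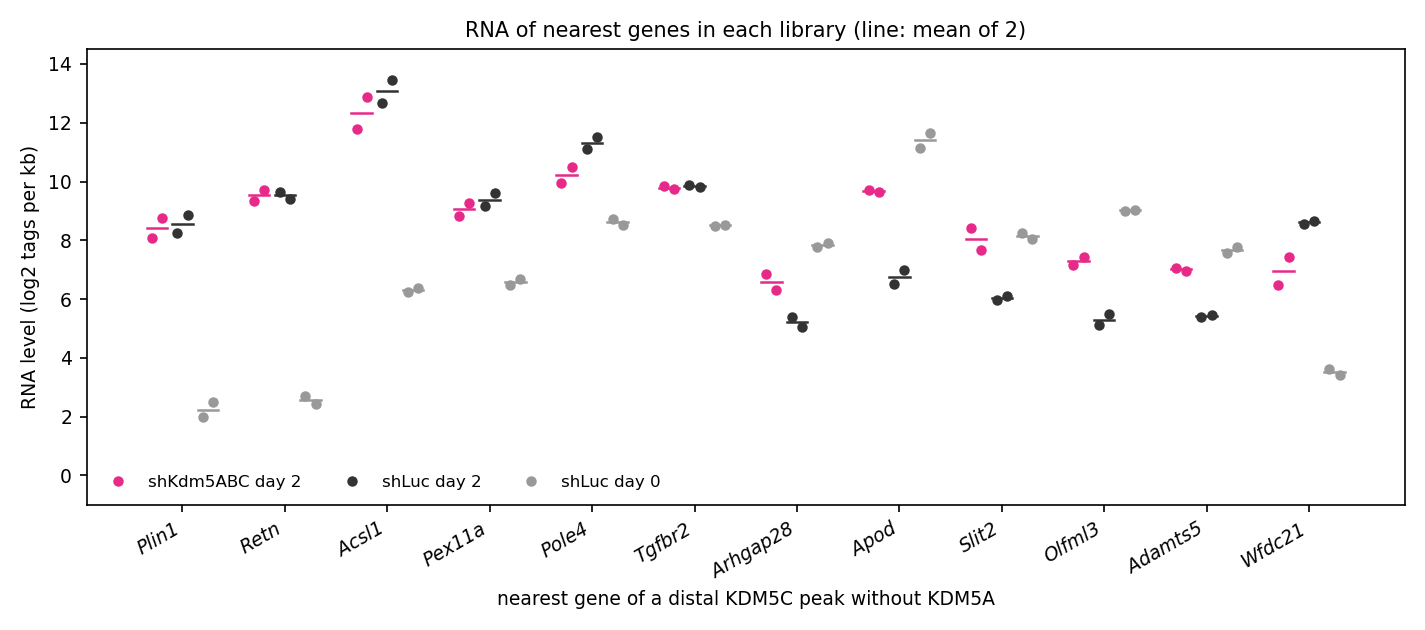
RNA level in log2 tags per kb (y axis) in each library of shKdm5ABC day 2 (pink), shLuc day 2 (black) and shLuc day 0 (grey) for 12 nearest genes of distal KDM5C peaks without KDM5A (x axis). Points are libraries and lines the mean of 2; Apod, Slit2, Olfml3 and Adamts5 are higher in both shKdm5ABC libraries than in both shLuc day 2 libraries, whereas Plin1, Retn and Tgfbr2 overlap.

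Fat storage genes next to the peaks did not pass the test between shKdm5ABC and shLuc. None of the 14 tested nearest genes of the adipocyte list was called, with log2 changes from -1.04 to 0.34 and a median of -0.51, against -0.00 over all tested transcripts. The whole list of 32 tested genes had a median of -0.41, with 1 called higher and 1 lower. Plin1 had 8.07 and 8.75 log2 tags per kb in shKdm5ABC cells, against 8.25 and 8.86 in shLuc cells. With the replicate block, 5 of the 14 fell and none rose, against 14.2% lower and 13.9% higher of all tested transcripts. Among the 5 were Agpat2 (change -1.04, limma adjusted p with the block 0.00202), Fabp4 (-0.99, 0.0131), Hsd11b1 (-0.93, 0.00634) and Gpam (-0.32, 0.0365). The summed adipocyte markers, 14.1 to 14.9 in shKdm5ABC cells against 15.04 to 15.38 in shLuc cells, are given beside this because Plin1, Fabp4 and Lpl are on both lists. Their part in the other differences was not tested.

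Few replication genes lay next to these peaks. Of 46 tested replication and mitosis genes, 28 fell with shKdm5ABC and none rose, and 4 (8.70%) were nearest genes of the set. Of these, Ttk, a spindle checkpoint kinase, fell by 1.10 (adjusted p 0.0225) and Mcm5, a helicase subunit, by 0.73 (adjusted p 0.0380). For Mcm5, fits without 1 library are not given here. Mcm3, another helicase subunit, and Top2a, a topoisomerase, changed by -0.60 and -0.79 and did not pass the threshold, but did with the replicate block (adjusted p 0.0134 and 0.0349), where all 4 were lower. The call of Ttk was lost without each of the 4 compared libraries in turn, with adjusted p from 0.0904 to 0.110.

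Single genes of the other lists were called among the nearest genes. Of 20 adipogenic transcription factors, Ebf1, Klf5 and Creb5 rose by 0.73, 0.65 and 1.60, and over the whole list 4 of 39 rose and 1 fell. Of 6 histone methylation genes, the methyltransferase Kmt2c rose by 0.66 (adjusted p 0.0164) and Kmt2e by 0.52 (adjusted p 0.0482), but Kmt2c was called only without shKdm5ABC replicate 1 and Kmt2e in none of the fits that left out 1 compared library (lowest adjusted p 0.103). Over that whole list 2 of 26 rose and 3 fell. Of 6 clock genes, Hlf, a PAR bZIP factor, rose by 1.28 (adjusted p 0.0278) as the only call among 18 on the list, and it was not called without shKdm5ABC replicate 1 (0.0954), shKdm5ABC replicate 2 (0.109) or shLuc replicate 2 (0.184). Of 8 tested G1 regulators, Rbl2 rose by 0.49 and Ccne2, cyclin E2, fell by 1.17, against 3 higher and 6 lower of 34 on the list. Of 17 glucocorticoid, cAMP and immediate-early genes, Sik1 rose by 0.85 and Jun by 0.95, against 6 higher and none lower of 39. Of 6 interferon genes Irf2 rose by 0.66, against 2 higher and none lower of 33. None of the 16 tested preadipocyte receptor and Wnt genes was called, against 3 higher of 35, but 6 of the 16 were higher with the replicate block. Fits without 1 library are not given here for Ebf1, Klf5, Creb5, Rbl2, Sik1, Jun and Irf2. How far these calls depend on single libraries is thus not shown.

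H3K4me3 was used only as a count, because at some adipocyte promoters its columns, as headed, did not follow the RNA. At adipocyte promoters the columns headed as shKdm5ABC at day 2 were high and those headed as shLuc at day 2 low: Plin1 had 139 and 77.1 tags against 14.2 and 8.22, and Cidec, a lipid droplet protein, 451 and 258 against 36.4 and 23.2. The RNA of Plin1 overlapped between shKdm5ABC and shLuc cells at day 2. In columns headed as shKdm5ABC at 4 hours Plin1 had 111 and 140 tags, while its RNA there was 2.45 and 2.26 log2 tags per kb. Pparg, in contrast, had fewer tags in those columns (428 and 563) than in the columns headed as shLuc at 4 hours (838 and 933). Whether the headings or the shRNA account for these values was not tested. Of 2919 H3K4me3 promoter peaks of nearest genes, 672 (23.0%) differed between the columns so headed, against 24.0% of all 10702 promoter peaks, and no direction is drawn. Between the columns as headed, the median log2 difference was 0.23 at the nearest genes' promoters and 0.25 for all. Its sign depends on the headings and is not read as an effect of shKdm5ABC. Over all 12 libraries the peak at the Pole4 start site had 599 to 926 tags, and the one at the start of Mtx2, which encodes metaxin 2 of the mitochondrial outer membrane, had 599 to 785 tags.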

How the data were processed

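RNA sequencing (12 libraries), H3K4me3 ChIP (12), KDM5A ChIP (6), KDM5C ChIP (2) and Input were used. The authors deposited a signal per peak, HOMER tags scaled per library, and for RNA log2 normalised tags per kb. The authors also deposited the distance of each peak to a start site. Bowtie2 0.12.8, STAR, HOMER, Subread, DESeq2 and mm9 are named, per the submitters' processing notes, without a role. The peak caller's settings and the RNA counts are not given in the sources used here, so RNA depth is unknown. Chromatin was crosslinked with DSG, which also links proteins to each other, before formaldehyde, per the labels' protocols.

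Whole reads were recovered by dividing tags by the step of each KDM5C and Input column (100% within 0.1 of a whole number). RNA was fitted on the deposited log2 values with limma 3.58.1 in R 4.3.3 over all 12 libraries (1 mean per group, trend; log2 level of at least 1 in at least 2 libraries), and p-values were adjusted by Benjamini-Hochberg over 13534 transcripts. H3K4me3 was fitted likewise on log2(tags + 1), with edgeR 4.0.16 as an alternative. Same-numbered libraries deviated together in all 15 pairs of groups (correlation 0.381 to 0.657 in RNA), so the numbers pair the samples. On simulated data for the day 2 RNA comparison (13534 transcripts), 45.5% of 200 log2 changes of 1 were recovered, with 3 false calls. The simulated noise was independent between libraries, without the shared deviation of same-numbered libraries, so these rates hold for that setting only.

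Members and gene lists were chosen with earlier results of these data known. Named genes are the Kdm5 genes, the 12 peaks with the most KDM5C and 5 with the most Input tags, 3 peaks on each side of the distance limit, the 10 highest and 10 lowest called RNA changes with shKdm5ABC and 5 each over time (mean level at least 3, groups not overlapping), and up to 3 genes per list. Other list genes named were chosen after their values were seen. The H3K4me3 part of the rule was not applied, since those columns, as headed, did not follow the RNA at some adipocyte promoters. The 11 damaged gene names among members were read from RefSeq accessions. The Input virus sample was not analysed here.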

Additional observations from a re-analysis of the deposited data

How the results depend on the processing

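The number of peaks was 7529 to 10687 under the other limits of distance and overlap, 8325 as reported. Leaving out 1 KDM5C library gave median tags of 4.92 to 17.0 and a median log2 ratio to Input of 1.91 to 3.49. Adding 5 tags gave a ratio of 1.56 and left 2446 peaks at least 2-fold above Input in both libraries. With a mean of at least 20 tags, 554 peaks remained with median tags of 25.4 and a Spearman correlation of 0.19, and 192 nearest genes were called over time and 24 with shKdm5ABC. For shKdm5ABC against shLuc at day 2, 293 calls became 6 with only the compared groups and 921 with the replicate block, and were 35 to 252 when a library was left out. Over time, 1640 calls became 1990 with the block and were 1349 to 1406 without 1 library. The H3K4me3 count of 672 became 230 after centring, 216 with edgeR on recovered reads, 1508 with the replicate block and 276 to 441 without 1 library. Retn had a change with shKdm5ABC of -0.021 after centring. When 1 library was left out, uncalled changes with shKdm5ABC took both signs for Retn (-0.183 to 0.191), Cfd (-0.420 to 1.10), Plin1 (-0.483 to 0.199), Mx1 (-0.104 to 0.785), Rtp4 (-0.318 to 0.216), Mir1192 (-0.271 to 0.094), Fzd8 (-0.102 to 0.055), Pim1 (-0.00055 to 0.133), Fkbp5 (-0.218 to 0.037), Ifnar2 (-0.053 to 0.229) and Nr1d2 (-0.061 to 0.952), and those over time for Insig1 (-0.574 to 0.171), Rab1 (-0.288 to 0.052), Tnfaip8 (-0.253 to 0.055) and Fzd8 (-0.294 to 0.122). The causes were not tested. Among all values of named genes, 92 calls with shKdm5ABC were lost and 13 gained under an alternative, and 14 and 13 over time. KDM5C replicate 1 limits the tags most, since 1 of its reads is worth 3.39 tags.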
